A study of Mus musculus with 96 samples.

Results

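The epidermis of mice whose clock ran in the brain was compared with that of mice whose clock ran in every tissue, gene by gene, for the level of each messenger RNA. The comparison uses all 24 libraries labelled BRE and all 24 labelled WT, 48 of the 96 libraries of the series, chosen by their titles. Per the labels, BRE mice carried Arntl stopFL/stopFL together with Syt10-Cre tg/wt and were wt/wt for K14Cre. WT mice were wt/wt at Arntl and carried both drivers, K14Cre as wt/tg and Syt10-Cre as tg/wt. A stopFL allele carries a floxed cassette that blocks Arntl until Cre removes it. K14Cre acts in keratinocytes and Syt10-Cre acts in the brain clock, so that BRE epidermis, like the other tissues outside the brain, keeps the block. BRE and WT mice therefore differ both in the Arntl alleles and in K14Cre, and these cannot be told apart between them. RERE mice carry the Arntl stopFL/stopFL alleles and the Syt10-Cre tg/wt of BRE and differ from it in K14Cre, which is tg/wt. EpiRE mice, also Arntl stopFL/stopFL, have K14Cre tg/wt and are wt/wt for the Syt10-Cre driver. All were female C57BL/6 mice, 8 weeks old and held in constant darkness, with 4 mice at each of 6 circadian times (CT) spaced 4 h apart, and the labels call the mice biological replicates.

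The circadian clock of a cell is a loop in which BMAL1, the product of Arntl, pairs with CLOCK or NPAS2, binds E-boxes and drives Per, Cry, Nr1d and the PAR bZIP genes. PER and CRY proteins inhibit that pair, and the REV-ERB proteins made from Nr1d1 and Nr1d2 repress Arntl, Npas2, Cry1 and Nfil3 at ROR elements, where RORs activate. In skin the clock is known to time cell division, metabolism and stress defence in keratinocytes.

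Levels are the deposited log2 RPKM, reads scaled to gene length and library depth, on a log2 scale, and a difference of 1 is a change of 2 times. Recovered read totals were 12.1 to 17.8 M in WT and 11.1 to 18.6 M in BRE, with means of 15.4 M and 15.0 M. The libraries were epidermal by their defining markers. Krt5 had a median of 5951 RPKM in WT and 5929 in BRE, and Krt14 2712 and 2568. The summed markers of endothelium reached at most 0.950 RPKM in the 48 libraries and those of adipocytes at most 1.85.

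Arntl, the blocked gene, was read first. Over 24 libraries its lowest, median and highest levels were 2.51, 3.94 and 4.97 in WT and 3.68, 3.86 and 4.37 in BRE. The means were 3.88 in both, and the difference was 0.01 ± 0.12 (standard error, adjusted p = 0.98). The level of the whole gene does not show whether its transcripts run past the cassette. WT time means of Arntl ran from 2.75 ± 0.26 at CT12 to 4.75 ± 0.16 at CT0 (SD, n = 4), and those of BRE from 3.81 ± 0.14 to 3.95 ± 0.29. BRE held a level in the middle of the WT range at every time, so the groups lay apart at 4 of 6 times although their means were equal.

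In a limma fit of genotype beside CT, 4066 of 11016 genes tested were called at an adjusted p under 0.05, which is 36.9%. Of all genes tested, 1382 were higher in BRE (12.5%) and 2684 were lower (24.4%). Most called differences were small. Their median size was 0.183 on the log2 scale, 508 genes were higher and 788 lower by at least 0.25, 134 and 178 by at least 0.5, and 24 and 36 by at least 1. The split between higher and lower depended on the scaling: with each library centred on its median gene, 1888 were called higher and 1815 lower, since the median of all genes moved from -0.0455 to -0.0112. Of the called genes, 59.8% differed in 1 direction at all 6 times, against 4.47% of the uncalled. The call averages over the same 6 times, so this contrast follows from the call and is no separate evidence. The 24 BRE and 24 WT libraries did not overlap at all for 3 genes (0.0272%), which were Tmem246, higher in BRE (0.00908%), and Nr1d2 and Csrp2, lower in BRE (0.0182%).

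**Figure D1:**
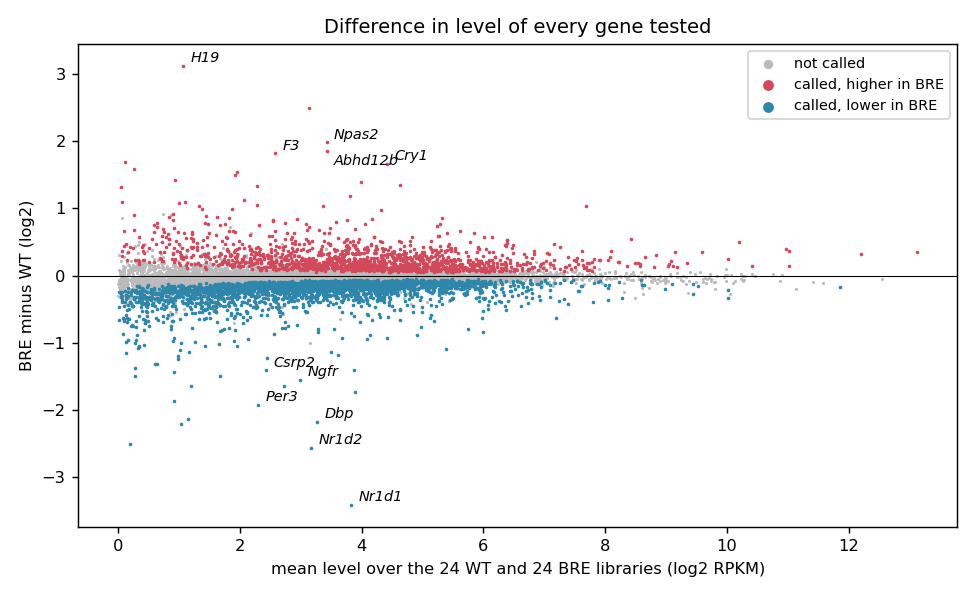
BRE minus WT (log2) of each of the 11016 genes tested, against its mean level (log2 RPKM) over 48 libraries; grey points were not called, red were called higher and blue lower. Most called genes lie within 0.5 of 0, while H19, Npas2, Nr1d1 and Nr1d2 lie beyond 1.9.

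The clock genes held many of the largest differences. Of 26 tested members of the clock lists, 19 were called, against 36.9% of all genes. Many of the repressors and output genes that BMAL1 drives were low. Nr1d1, which encodes REV-ERB alpha (chr11:98767932-98775333, minus strand, mm10), had a lowest, median and highest level of 3.16, 5.67 and 7.45 in WT and of 1.65, 2.09 and 3.21 in BRE. It was lower in BRE by a factor of 10.6 (-3.41 ± 0.25, adjusted p = 4.7e-14), with 23 of 24 BRE libraries below the lowest WT library. Its relative Nr1d2, which encodes REV-ERB beta, ranged from 2.93 to 5.67 in WT and from 1.19 to 2.69 in BRE (-2.56 ± 0.15, adjusted p = 3.4e-17), and every BRE library lay below every WT library. The mean BRE level of both genes was lower than the WT mean at any time, so they lay under the WT trough and not at its mid-level.

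Dbp, a PAR bZIP activator of output genes, had a lowest, median and highest level of 0.99, 4.90 and 7.04 in WT and of 1.73, 2.15 and 2.56 in BRE (-2.17 ± 0.33, adjusted p = 1.4e-06). No BRE library fell under the lowest WT library, and the BRE mean stood 14.6% of the way from the lowest to the highest WT time mean. Per3, a period gene, had a median of 3.03 in WT and 1.32 in BRE (-1.92 ± 0.22, adjusted p = 2.9e-09). Ciart, which encodes the repressor CHRONO, had a median of 0.63 in WT and -0.46 in BRE (-1.50 ± 0.23, adjusted p = 1.1e-06). The BRE mean of Ciart lay under the level required for testing, so Ciart entered the count of clock genes only through its WT libraries. The BRE means of Per3 and Ciart stood 0.12% and -0.18% of the way along the WT range of time means, which is at its lower end. Bhlhe40, which encodes the repressor DEC1, had a median of 5.88 in WT and 4.83 in BRE (-1.09 ± 0.12, adjusted p = 2.4e-09), and 14 BRE libraries lay under the lowest WT library. Smaller falls were called for Klf9 (-0.67 ± 0.11), Tef (-0.66 ± 0.16), Per1 (-0.55 ± 0.15), Wee1 (-0.39 ± 0.12), Por (-0.11 ± 0.04) and Nampt (-0.10 ± 0.03).

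The clock genes that rose included known targets of REV-ERB repression. Npas2, the partner of BMAL1 in place of CLOCK (chr1:39193731-39363236, plus strand), had a lowest, median and highest level of 0.98, 2.53 and 3.93 in WT and of 3.68, 4.45 and 4.64 in BRE. It was 3.95 times higher in BRE (1.98 ± 0.17, adjusted p = 1.3e-12), and 23 of 24 BRE libraries lay above the highest WT library. Cry1, a cryptochrome repressor, ranged from 1.69 to 4.90 around a median of 4.04 in WT and from 4.58 to 5.49 around 5.26 in BRE (1.67 ± 0.15, adjusted p = 9.8e-12). The BRE means of Npas2 and Cry1 stood 123% and 127% of the way along the WT range, above the WT peak. Clock rose by 0.32 ± 0.04, Leo1, a subunit of the PAF1 elongation complex, by 0.40 ± 0.07, Nfil3, the repressor E4BP4, by 0.56 ± 0.18, and Cdkn1a, the CDK inhibitor p21, by 0.13 ± 0.05.

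The other 7 clock genes, Arntl among them, were not called. Per2 had a lowest WT level of -1.55 and a lowest BRE level of 0.95, with a difference of 0.07 ± 0.31 (adjusted p = 0.87). Cry2 differed by -0.03 ± 0.08, Hlf by -0.15 ± 0.07, Usp2 by -0.13 ± 0.10, Rora by -0.10 ± 0.05 and Tspan4 by -0.18 ± 0.11. For Per2 the equal means hid opposite differences: BRE was 2.95 above WT at CT0 and 1.74 below it at CT12. Some small calls ended when 1 time was left out, for some genes at several times. Without CT12, adjusted p rose to 0.055 for Tef, 0.094 for Nfil3, 0.077 for Nampt and 0.16 for Cdkn1a. For Cdkn1a it was also 0.075 without CT4, 0.073 without CT8 and 0.11 without CT16. For Por it was 0.079 without CT0, 0.17 without CT8 and 0.075 without CT16, and for Nfil3 0.075 without CT16. Without CT0, on the other hand, Hlf (-0.26, adjusted p = 0.0051) and Tspan4 (-0.30, adjusted p = 0.038) were called. Centring on the median gene also ended the calls of Por (adjusted p = 0.11) and Nampt (adjusted p = 0.14).

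**Figure D2:**
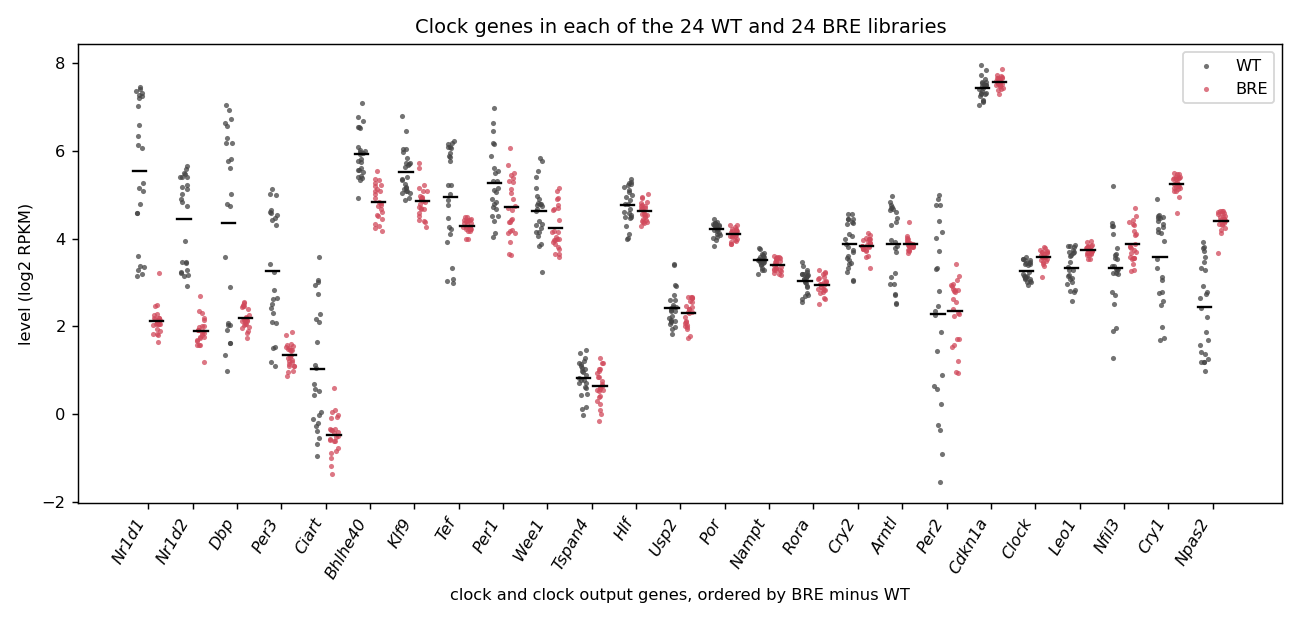
Level (log2 RPKM) of 25 clock and output genes in each of 24 WT (grey) and 24 BRE (red) libraries, with black bars at the means, ordered from the gene lowest in BRE to the gene highest. WT points spread over the day, while nearly all BRE points lie below the WT range for Nr1d1 and Nr1d2 and above it for Cry1 and Npas2.

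Promoter windows of 22 of these 26 genes, 250 bases before to 50 after the start, were in the RefSeq table of build GRCm38.p6. Stretches of 120 bases before the start are shown for 5 genes that moved in opposite directions, chosen because they hold a motif, to set the motifs beside the levels. The windows of Nr1d1, Nr1d2, Dbp and Npas2, which moved more, held none of the motifs searched. Ciart, Tef and Per3 were lower in BRE, and Cry1 and Nfil3 were higher. Capitals mark the E-box (CACGTG), the ROR element (TAGGTCA) and the D-box (TTANGTAA), searched on both strands.
Ciart, chr3:95882246-95882365, minus strand: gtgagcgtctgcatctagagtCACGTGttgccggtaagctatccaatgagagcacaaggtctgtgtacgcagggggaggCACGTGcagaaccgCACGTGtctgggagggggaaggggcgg
Tef, chr15:81802489-81802608, plus strand: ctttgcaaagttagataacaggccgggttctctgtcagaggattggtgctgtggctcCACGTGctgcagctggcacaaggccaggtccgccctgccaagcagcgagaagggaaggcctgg
Per3, chr4:151044784-151044903, minus strand: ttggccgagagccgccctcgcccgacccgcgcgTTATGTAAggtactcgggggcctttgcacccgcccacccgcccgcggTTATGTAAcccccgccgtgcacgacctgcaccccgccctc
Cry1, chr10:85185055-85185174, minus strand: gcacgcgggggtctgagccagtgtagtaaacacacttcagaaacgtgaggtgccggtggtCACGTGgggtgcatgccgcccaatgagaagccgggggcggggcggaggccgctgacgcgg
Nfil3, chr13:52981040-52981159, minus strand: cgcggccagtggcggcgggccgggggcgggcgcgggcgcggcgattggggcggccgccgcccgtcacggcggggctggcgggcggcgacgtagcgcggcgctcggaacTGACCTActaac
Ciart held 3 E-boxes and Tef 1, Per3 held 2 D-boxes, the sites of the PAR bZIP factors and NFIL3, and Nfil3 held 1 ROR element, read on the opposite strand. Cry1 held 1 E-box although its level rose. Among windows of the clock genes, 4 of 12 windows of lower genes and 1 of 9 windows of higher genes held an E-box. Over all tested genes 10.4% of windows held one, against 11.5% of the windows of genes called lower, 8.26% of those called higher, 10.9% of those lower by at least 0.5 and 2.70% (3 of 111) of those higher by at least 0.5. ROR elements were in 1.78% of all these windows, 1.94% of the windows of genes called higher and 1.79% of those called lower.

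The size of the difference varied over the day for some genes. A test of whether the difference itself varied between times called 285 of 11016 genes (2.59%), and 97 to 135 when a replicate number was left out. Npas2 in WT fell from 3.81 ± 0.09 at CT0 to 1.24 ± 0.11 at CT12, while BRE time means stayed between 4.29 ± 0.42 and 4.50 ± 0.12 (SD, n = 4). Dbp in WT rose from 1.39 ± 0.30 at CT0 to 6.82 ± 0.21 at CT8, while BRE stayed between 1.87 ± 0.11 and 2.32 ± 0.24. BRE was thus lower in Dbp by 4.50 at CT8 and higher by 0.89 at CT0. Cry1, Ttc9 and Abhd12b were higher in BRE at every time, with the widest gaps at CT4 for Cry1 (3.28) and at CT12 for Ttc9 (2.71) and Abhd12b (2.54).

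Genes with a wide span in WT were counted by the time of their WT peak. Among 439 genes whose WT time means spanned at least 1, 29.8% were called, beside 41.5% of the 1967 genes that spanned 0.5 to 1 and 36.2% of the 8610 that spanned under 0.5. Of 91 such genes highest at CT8 in WT, 36 were lower in BRE and 2 higher, and of 77 highest at CT12, 20 were lower and 4 higher. Of 115 highest at CT0, 22 were higher and 7 lower, and of 54 highest at CT20, 13 were higher and 2 lower. Of 54 highest at CT4, 10 were higher and 7 lower, and of 48 highest at CT16, 2 were higher and 6 lower. Most genes of each peak time were not called, and those highest at CT20 had a median difference of -0.08. The shares of all genes are 12.5% higher and 24.4% lower.

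**Figure D3:**
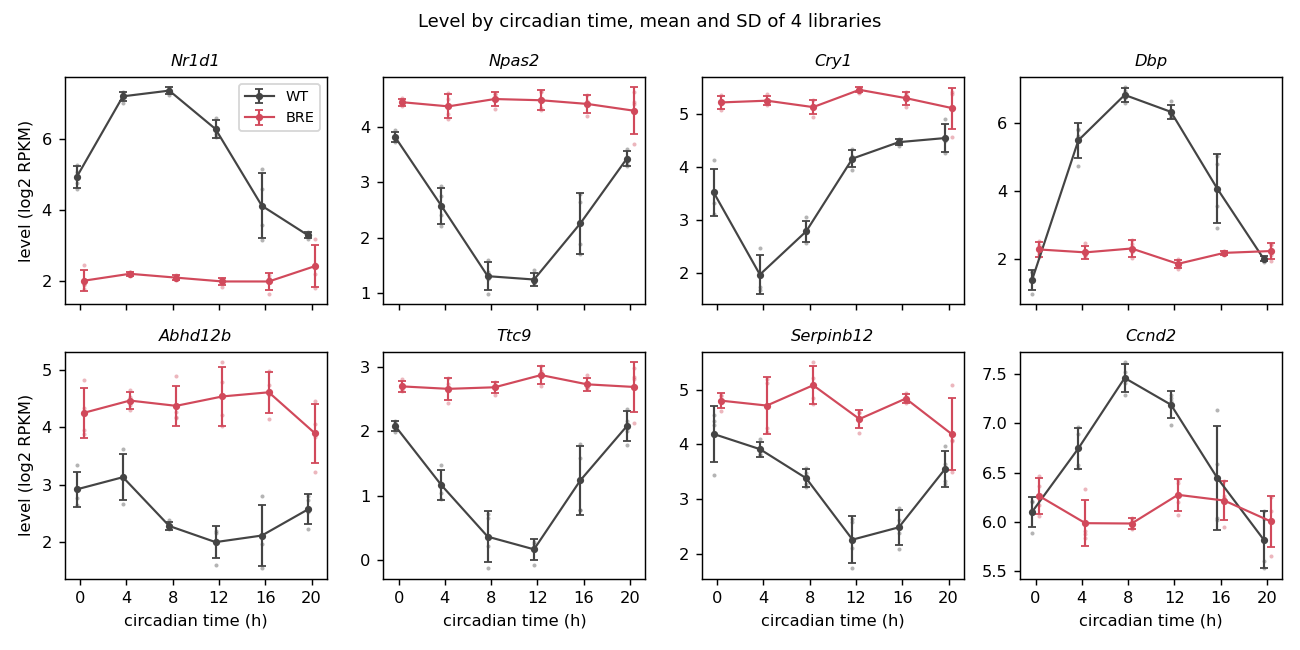
Level (log2 RPKM) of 8 genes against circadian time (h), as mean and SD of 4 WT (grey) or 4 BRE (red) libraries with single libraries as faint points. BRE runs flat below the WT curve for Nr1d1, above it for Npas2, Cry1, Abhd12b and Ttc9, and across it for Dbp and Ccnd2.

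Tested within a time, 4 against 4, BRE and WT differed at 221 genes at CT0 (2.01%), 656 at CT4 (5.95%), 1149 at CT8 (10.4%), 1314 at CT12 (11.9%), 640 at CT16 (5.81%) and 29 at CT20 (0.263%). These counts rest on single libraries. Leaving out 1 of the 8 libraries of a time gave 80 to 506 genes at CT0, 221 to 1212 at CT4, 664 to 1263 at CT8, 890 to 1295 at CT12, 287 to 604 at CT16 and 0 to 213 at CT20. At CT0 the count was 506 without WT replicate 4 and 80 without BRE replicate 2. At CT4 it was 1212 without WT replicate 1 and 221 without WT replicate 3, and at CT20 it was 213 without BRE replicate 1 and 0 without BRE replicate 3 or 4. The order of the times is therefore not read from them. The level fit over all times gave 3749 to 4303 genes without any 1 of the 48 libraries, and 10 genes were called at all 6 times.

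Beyond the clock, the largest rises were in genes of varied roles. H19, an imprinted long noncoding RNA (chr7:142575529-142578143, minus strand), had a lowest, median and highest level of -3.28, -0.36 and 2.28 in WT and of 0.87, 2.67 and 4.66 in BRE (3.12 ± 0.31, adjusted p = 8.4e-11). The WT level was low, and 17 BRE libraries lay above the highest WT library. Of 5 tested imprinted genes 2 were higher and 0 lower, and 1 was higher without any 1 replicate number. The other 11 of the 16 listed were not tested. The WT mean of H19 lay under the level required for testing, so H19 entered this count only through its BRE libraries. F3, tissue factor, which starts blood clotting, had a median of 1.75 in WT and 3.41 in BRE (1.82 ± 0.17, adjusted p = 2.6e-11). Abhd12b, a member of the abhydrolase family, had a median of 2.46 in WT and 4.33 in BRE (1.85 ± 0.13, adjusted p = 3.5e-15), with 23 BRE libraries above all WT libraries. Ttc9 had a median of 1.11 in WT and 2.71 in BRE (1.54 ± 0.14, adjusted p = 5.1e-12).

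Other genes among the 15 largest rises moved less. Slc46a2, a solute carrier, rose by 1.33 ± 0.14, Mrgprb2, a receptor known from mast cells, by 1.13 ± 0.09, Ly6c1 by 1.05 ± 0.11 and Calcb, which encodes beta-CGRP, by 1.04 ± 0.10. The protease inhibitors Serpinb12 (1.39 ± 0.14) and Serpina3b (1.18 ± 0.21) and the stefin-family gene BC100530 (1.50 ± 0.32) rose too. Their gene families hold some close copies, so that how reads were shared among copies may bear on these values. BC100530 ranged from -2.44 to 5.28 in WT and from 0.73 to 4.24 in BRE, inside the WT range in every library. Agpat3, an acyltransferase of phospholipid synthesis, was among the 10 smallest p-values: its lowest, median and highest levels were 4.32, 4.97 and 5.42 in WT and 5.39, 5.70 and 5.82 in BRE (0.77 ± 0.05, adjusted p = 3.5e-15). Gtf2i, a transcription factor, moved less (0.41 ± 0.03, adjusted p = 4.7e-14), yet 23 BRE libraries lay above the highest WT library of 5.53. Tmem246 ran from 2.25 to 2.84 in WT and from 2.91 to 3.60 in BRE (0.64 ± 0.05, adjusted p = 1.1e-13). Cachd1 rose by 0.35 ± 0.03.

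The largest falls outside the clock took in steroid, signalling and cytoskeletal genes. Akr1c18, a steroid dehydrogenase, ranged from 3.25 to 5.96 around a median of 4.81 in WT and from -0.75 to 5.88 around 3.05 in BRE (-1.74 ± 0.32, adjusted p = 3.3e-05). BRE libraries varied widely, and 14 of them lay under the lowest WT library. Gadl1, a decarboxylase of acidic amino acids, fell by 1.64 ± 0.19, from a median of 3.56 to 1.93. Ngfr, the p75 neurotrophin receptor, had a lowest, median and highest level of 2.74, 3.77 and 4.83 in WT and of 1.22, 2.26 and 2.98 in BRE (-1.55 ± 0.14, adjusted p = 1.9e-11). Cdc25b, a phosphatase that admits cells to mitosis, fell from a median of 4.64 to 3.08 (-1.41 ± 0.10, adjusted p = 6.8e-15), and 23 BRE libraries lay under the lowest WT library. Csrp2, a LIM-domain protein, ran from 2.50 to 3.71 in WT and from 0.03 to 2.41 in BRE, with no overlap (-1.40 ± 0.12, adjusted p = 1.4e-12).

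Irf4, an interferon regulatory factor, fell by 1.50 ± 0.21 and Ifi202b, from a gene family of close copies, by 1.18 ± 0.10. Smim24 fell by 1.22 ± 0.11, Mcam, an adhesion molecule, by 1.05 ± 0.09, Gem, a small GTPase, by 0.95 ± 0.12, and Pyy, peptide YY, by 1.14 ± 0.23. Lhx2, a transcription factor of hair follicle stem cells, fell by 0.94 ± 0.13. Among the 10 smallest p-values were also Ddr2, a collagen receptor, which fell by 1.87 ± 0.15 from a highest WT level of 2.74, and Tshz2, a zinc finger factor, which fell by 1.00 ± 0.08 from a highest WT level of 1.10.

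Levels in the RERE and EpiRE libraries were set beside these. BRE differed from RERE, which shares its Arntl alleles, at 3020 of 10991 genes (27.5%). Of these, 1110 were higher in BRE and 1910 lower. Both comparisons share the BRE libraries, and the genes named were chosen for their BRE minus WT difference, so the levels are given side by side as a description. Nr1d1 had a mean of 5.44 in RERE and 5.73 in EpiRE beside 5.54 in WT and 2.13 in BRE, and Npas2 2.29 and 2.55 beside 2.43 and 4.41. H19 had means of -0.35 in RERE and 0.45 in EpiRE beside -0.49 in WT and 2.63 in BRE. RERE lay closer to BRE than to WT for BC100530, with 2.35 in RERE and 2.67 in BRE (BRE minus RERE 0.32 ± 0.25, adjusted p = 0.35), Lhx2, with 2.05 and 1.66 (-0.40 ± 0.18, adjusted p = 0.094), and Serpinb12, with 4.04 beside 4.68 in BRE and 3.29 in WT.

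**Figure D4:**
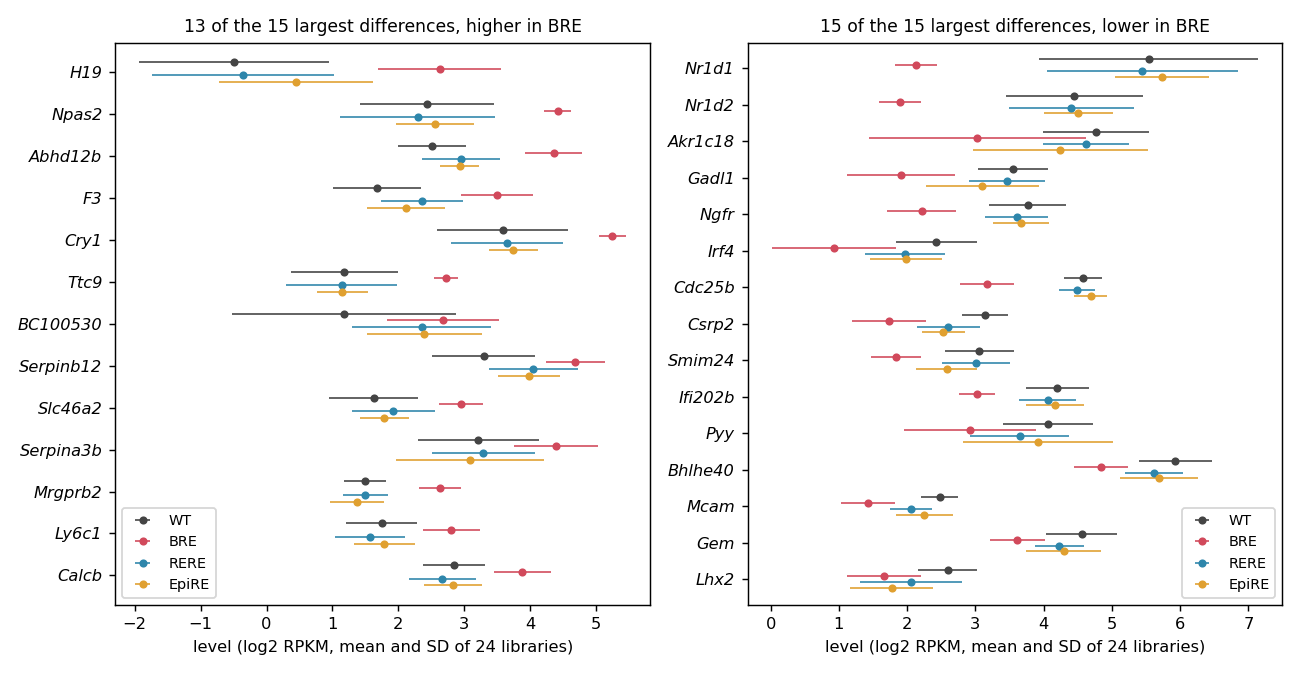
Mean level and SD over 24 libraries (log2 RPKM) of 13 of the 15 genes with the largest rise (left) and the 15 with the largest fall (right) in BRE, for WT, BRE, RERE and EpiRE. BRE stands apart from the other 3 genotypes for Npas2, Cry1, Cdc25b and Ifi202b, while RERE and EpiRE lie near BRE for BC100530 and Lhx2.

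Gene lists of the epidermis were then counted, each beside the median of all genes, -0.0455. In bulk RNA, more cells of a type cannot be told apart from more RNA per cell. Genes of suprabasal differentiation, made as keratinocytes leave the basal layer, were higher for 11 of 14 tested members and lower for 1, with a median difference of 0.29. The shares of all genes are 12.5% higher and 24.4% lower. Krt10, the keratin of the spinous layer, had a lowest, median and highest level of 12.47, 12.99 and 13.26 in WT and of 12.80, 13.34 and 13.60 in BRE (0.35 ± 0.06, adjusted p = 1.3e-05). Krt1, its partner, rose by 0.36 ± 0.05, Krtdap by 0.39 ± 0.06 and Grhl3, a factor of barrier formation, by 0.30 ± 0.05. Krt2, a keratin of the upper layers, went the other way: it ran from 0.45 to 1.61 in WT and from -1.56 to 0.94 in BRE (-1.37 ± 0.12, adjusted p = 2.3e-12), while its mean was 2.16 in RERE and 1.94 in EpiRE. Against RERE, 10 of the 14 members were higher in BRE and 1 was lower. Krt1 was not among them, with means of 11.25 in RERE, 11.26 in EpiRE and 11.20 in BRE, and BRE minus RERE was -0.05 ± 0.05 (adjusted p = 0.46).

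The cornified envelope, the protein shell of dead surface cells, had 6 of 13 tested members higher and 0 lower, with a median of 0.38. Of all genes, 12.5% were higher and 24.4% lower. Ivl, involucrin, rose from a median of 5.38 to 6.06 (0.67 ± 0.13, adjusted p = 6.1e-05), Hrnr, hornerin, by 1.09 ± 0.18, Cdsn, corneodesmosin, by 0.58 ± 0.13 and Asprv1, a protease that processes filaggrin, by 0.47 ± 0.11. Stefins and clade B serpins, inhibitors of proteases in keratinocytes, were higher for 6 of 7 (median 0.85). Serpinb3b was at 3.74 in WT, 4.59 in BRE, 4.54 in RERE and 4.55 in EpiRE. The limit given above for close copies holds for this list too. Against RERE, 3 of the 7 were higher in BRE and 1 was lower (median 0.14). Of the 13 cornified envelope genes, 5 were higher in BRE than in RERE and 2 lower (median 0.22). Basal keratinocyte genes were divided, 4 higher and 3 lower of 14 (median -0.05), and Krt14 was not called (-0.10 ± 0.05, adjusted p = 0.12).

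Barrier lipid and cholesterol genes were often higher. Among all genes tested, 12.5% were higher and 24.4% lower. Of 15 barrier lipid genes, which make and export the ceramides and fatty acids of the stratum corneum, 12 were higher and 0 lower (median 0.20). Elovl4, which elongates very long fatty acids, had a lowest, median and highest level of 6.38, 7.11 and 7.36 in WT and of 6.96, 7.52 and 7.70 in BRE (0.43 ± 0.06, adjusted p = 4.6e-07), and 20 BRE libraries lay above the highest WT library. Degs1, a ceramide desaturase, rose by 0.26 ± 0.03 and Abhd5, a lipase cofactor, by 0.19 ± 0.03. Of 20 cholesterol synthesis genes 14 were higher and 0 lower (median 0.25). Fdps, farnesyl diphosphate synthase, ranged from 5.56 to 6.42 in WT and from 6.01 to 6.96 in BRE (0.53 ± 0.06, adjusted p = 2.4e-09), and Sc5d (0.39 ± 0.05), Dhcr7 (0.38 ± 0.05) and Nsdhl (0.33 ± 0.04) moved with it. Fatty acid synthesis had 5 of 10 higher, and 2 without replicate 1, 2 or 4, among them Acly (0.31 ± 0.05), which makes cytosolic acetyl-CoA. Fatty acid oxidation had 5 of 12 higher and 1 lower, with a median of 0.01. Acadl (0.39 ± 0.05) and Hadhb (0.28 ± 0.05) of the oxidation spiral rose, and the 1 that fell was Ppara (-0.29 ± 0.05), a nuclear receptor that drives such genes. Against RERE, 9 of 15 barrier lipid genes and 9 of 20 cholesterol genes were higher in BRE and 0 lower. Among all 10972 genes tested in both comparisons, 1109 were higher in BRE than in RERE and 1908 lower.

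Glycolysis was lower for 9 of 15 members and higher for 0 (median -0.16), against 24.4% lower of all genes. Pfkfb3, which makes the activator of phosphofructokinase, had a lowest, median and highest level of 1.62, 2.12 and 2.84 in WT and of 0.33, 1.04 and 2.09 in BRE (-1.02 ± 0.12, adjusted p = 1.5e-08). Hk2, hexokinase, fell by 0.54 ± 0.11, the glucose transporter Slc2a1 by 0.33 ± 0.06 and Gapdh by 0.20 ± 0.04. The hypoxia response had 8 of 13 lower and 0 higher (median -0.22), with 5 lower without replicate 2 and 9 without replicate 4. Egln3 (-0.93 ± 0.13) and Egln1 (-0.21 ± 0.04) encode oxygen-sensing prolyl hydroxylases, Car12 (-0.65 ± 0.08) a carbonic anhydrase and Vegfa (-0.69 ± 0.10) the vascular growth factor. For some of these genes the mean of RERE was close to that of BRE. Vegfa had a mean of 3.08 in WT, 2.39 in BRE, 2.38 in RERE and 2.35 in EpiRE, and Gapdh 6.88, 6.68, 6.68 and 6.70. In BRE against RERE, 3 glycolysis genes were higher and 3 lower of 15, and 1 hypoxia gene was higher and 2 lower of 13. Of all 10972 genes tested in both comparisons, 1109 were higher in BRE than in RERE and 1908 lower. Oxidative phosphorylation genes were nearly all uncalled, 1 higher and 1 lower of 20 (median -0.04).

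The counts that follow stand beside shares of 12.5% higher and 24.4% lower among all genes. Glucocorticoid targets were lower for 8 of 14 and higher for 0 (median -0.26), and the 8 include the clock genes Per1 and Klf9. The count was 5 with centring on the median gene or without replicate 2 or 4, 4 without replicate 3 and 9 without replicate 1. Among the others, Sgk1, a kinase, had a median of 4.48 in WT and 4.20 in BRE (-0.26 ± 0.07, adjusted p = 0.0018), and Mt1, a metallothionein, fell by 0.38 ± 0.10. Antioxidant genes had 6 of 16 lower and 2 higher, and 3 lower without replicate 2. Prdx6, a peroxiredoxin, ran from 5.97 to 6.61 in WT and from 5.65 to 6.15 in BRE (-0.43 ± 0.04, adjusted p = 7.9e-12), with 23 BRE libraries below all WT libraries. Sod2, the mitochondrial superoxide dismutase, fell by 0.27 ± 0.05 and Gpx1, a glutathione peroxidase, by 0.18 ± 0.04. Antigen presentation had 7 of 11 lower and 0 higher (median -0.30). The list had 4 lower with centring on the median gene or without replicate 1, 3 or 4, and 8 without replicate 2. Among its members were Tap2, a peptide transporter, lower by 0.43 ± 0.05, and Psmb8, of the immunoproteasome, lower by 0.35 ± 0.06. Against RERE 1 was higher and 1 lower. Heat shock genes had 3 higher and 1 lower of 14, the lower one being the co-chaperone Bag3 (-0.43 ± 0.06). Immediate early genes, which dissociation of tissue is known to induce, had 3 of 14 lower and 0 higher, with Socs3 at -0.63 ± 0.12. That share was near the 24.4% lower of all genes. The part of immediate early genes in the other results was not tested. Proteasome (0 of 19 called) and cytosolic ribosome genes (1 of 20 called) were nearly all uncalled.

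The cell cycle lists differed in how many genes were called. Of 19 S phase genes 5 were lower and 1 higher (median -0.22), a share near the 24.4% lower of all genes, and of 20 G2/M genes 0 were called (median -0.04). The S phase count was unstable: 2 were lower with centring on the median gene, 11 with genotype by CT means, 0 without replicate 2 and 2 without replicate 1, 3 or 4. Mcm6, of the replicative helicase, had a mean of 4.32 in WT and 4.00 in BRE (-0.32 ± 0.10, adjusted p = 0.012). WT Mcm6 ran from 3.88 ± 0.34 at CT4 to 4.68 ± 0.12 at CT12 and BRE Mcm6 from 3.58 ± 0.12 at CT12 to 4.41 ± 0.04 at CT0. The call ended without CT8 (adjusted p = 0.094), CT12 (adjusted p = 0.24) or CT16 (adjusted p = 0.11). The D cyclins, which carry cells into the cycle, fell: Ccnd2 from 6.63 to 6.12 (-0.50 ± 0.11, adjusted p = 0.00031) and Ccnd1 from 5.22 to 4.75 (-0.47 ± 0.10, adjusted p = 0.00015). For Ccnd2 the difference was -1.47 at CT8 and 0.16 at CT0, since WT rose to 7.46 ± 0.14 at CT8 and BRE stayed between 5.98 ± 0.06 and 6.27 ± 0.16. The CDK inhibitor Cdkn2b rose by 0.34 ± 0.06. In the list of D cyclins, their kinases and CDK inhibitors, 3 were higher and 3 lower of 9. Without a replicate number, 1 or 2 were higher and 2 or 3 lower.

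Signalling lists were mixed, and several counts were near the shares of all genes, 12.5% higher and 24.4% lower. Of 9 EGFR pathway genes 3 were higher and 0 lower, with 1 higher without replicate 2 and 4 without replicate 1. The list was led by the ligand Epgn (0.98 ± 0.14, adjusted p = 6.2e-07), which ranged from 3.20 to 5.25 in WT and from 2.96 to 6.05 in BRE. In the TGF-beta pathway the receptor Tgfbr2 rose by 0.31 ± 0.04 and the ligand Tgfb3 fell by 0.74 ± 0.10, with 1 higher and 4 lower of 11. In the Wnt pathway the receptors Fzd6 (0.24 ± 0.04) and Fzd10 (0.23 ± 0.04) rose while the inhibitor Sfrp1 (-0.32 ± 0.06) and the stem cell receptor Lgr6 (-0.45 ± 0.10) fell, with 2 higher and 4 lower of 11, and 2 lower with centring on the median gene. Retinoid genes had 3 higher and 1 lower of 9, and 5 and 0 with that centring, with Rdh12, a retinol dehydrogenase, up by 0.50 ± 0.05 and Crabp2, a retinoic acid carrier, by 0.36 ± 0.08. Bst2, an interferon-induced membrane protein, fell by 0.78 ± 0.14, in a list with 2 lower of 6.

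**Figure D5:**
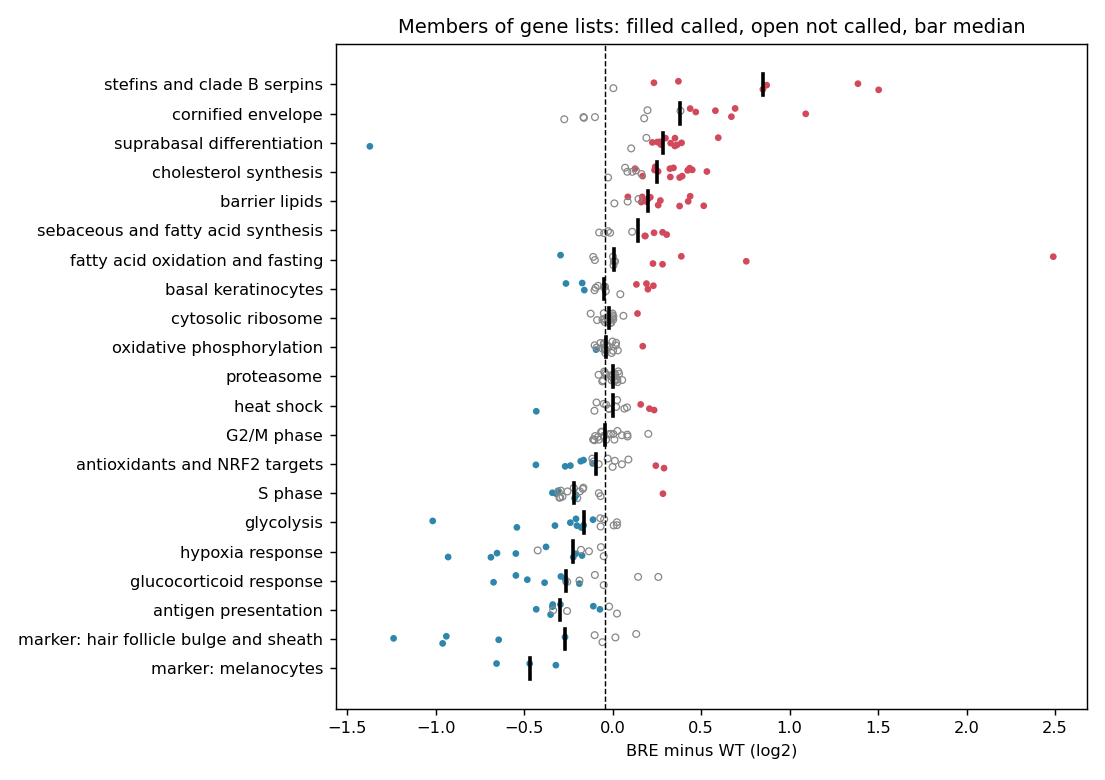
BRE minus WT (log2) of each tested member of 21 gene lists; filled points were called (red higher, blue lower), open points were not, bars mark list medians and the dashed line the median of all genes at -0.0455. Suprabasal, barrier lipid and cholesterol lists lie to the right and glycolysis, hypoxia and antigen presentation to the left, while ribosome and proteasome lie near 0.

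Markers of some other cell types differed too, beside shares of 12.5% higher and 24.4% lower among all genes. Of 9 tested markers of the hair follicle bulge and sheath 5 were lower and 0 higher, and 2 lower without replicate 2. Among the lower were Tbx1 (-1.24 ± 0.18) and Lhx2. The summed level of the 11 markers had a range of 265 to 710 RPKM in WT and 319 to 723 in BRE. Against RERE, 3 of 8 tested were higher in BRE and 1 was lower, with a median difference of 0.09. Of 3 tested melanocyte markers 3 were lower, such as Pmel (-0.47 ± 0.09) and Mitf (-0.32 ± 0.07), with summed levels of 5.02 to 11.5 RPKM in WT and 3.66 to 10.2 in BRE. Langerhans and myeloid markers were lower for 2 of 7, a share near that of all genes, with 1 to 5 lower when a replicate number was left out. Among them was Epcam (-0.33 ± 0.04), with sums of 132 to 349 RPKM in WT and 124 to 291 in BRE. T cell markers were lower for 2 of 6, and for 0 without replicate 1, 3 or 4, and higher for Thy1 (0.64 ± 0.14), with sums of 20.9 to 109 RPKM in WT and 47.2 to 116 in BRE. Of 3 tested fibroblast markers Fn1 (0.54 ± 0.11) and Sparc (0.32 ± 0.07) were higher and 1 was lower, with sums of 21.6 to 42.9 and 25.2 to 47.4 RPKM. Ngfr was the only tested marker of Merkel cells and nerve. The sum of the 8 had a range of 7.36 to 29.6 RPKM in WT and 3.16 to 11.3 in BRE. That sum includes Ngfr, and the other markers were under the level tested, so it mostly repeats the fall of Ngfr. Sebaceous gland markers had 1 of 5 higher and 0 lower (median -0.01), and muscle markers 0 of 3 called. Of 3 anagen hair shaft markers 2 were lower, and against RERE 1 was lower and 0 higher. No marker list was at 0 in all 48 libraries. The part of these cells in the differences of the other lists was not tested.

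Called genes were spread over the genome. Between 33.7% and 40.6% of the tested genes of each autosome and of the X chromosome were called. Within 5 Mb of Arntl on chromosome 7, the locus that was modified, 18 of 49 tested genes were called (36.7%, against 36.9% of all). Those that rose there include Calcb, 1.40 Mb from Arntl, Rras2, a small GTPase, 0.733 Mb away (0.47 ± 0.05, adjusted p = 2.2e-09), and Nlrp10, 4.28 Mb away (0.50 ± 0.08, adjusted p = 4.4e-06). Others of the 18 fell, among them Wee1 (-0.39 ± 0.12), Lmo1 (-0.36 ± 0.08) and Sox6 (-0.26 ± 0.06). Time means of Calcb ran from 2.14 to 3.15 in WT and from 3.34 to 4.09 in BRE. In RERE and EpiRE, which carry the Arntl alleles of BRE, they ran from 2.03 to 3.15 and from 2.58 to 3.24. What lies behind the differences near Arntl was not tested. H19 lies on the same chromosome outside that window.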

How the data were processed

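Polyadenylated RNA of mouse back-skin epidermis was sequenced in 96 libraries, of which 48 were compared. Per the labels' protocols, epidermis was separated with dispase and libraries were made with a stranded kit and adaptors with molecular identifiers. No source used here says whether identifiers were collapsed or whether counting was stranded. The submitters' processing notes name featureCounts 1.6.0, edgeR, HISAT2 2.2.1, Trimmomatic 0.36 and SAMtools 1.3.1, and the build mm10. The deposited values are log2 RPKM per gene and library, made by the authors, in 4 tables of 22497 genes. The libraries' CT rests on the column names of these tables. A further 96 value columns carry library codes found in no label and were not used.

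Genes whose mean over the libraries compared reached 0 log2 RPKM were tested with limma 3.58.1 in R 4.3.3 (moderated test with a mean trend, two-sided), with genotype and CT as a factor, and Benjamini-Hochberg adjustment over all 11016 genes. Every adjusted p is from limma, and errors are standard errors unless marked SD. Differences within a time came from genotype by CT means, and their variation between times from limma's moderated F test. Whole reads were recovered for 99.89% of genes, within 0.1 read, and served for depth and for limma-voom. The script was tested on simulated data. Mice are the replicates. Positions are from GENCODE by Ensembl ID (99.9% of genes), and 50 tested symbols share an ID with another.

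The members and the 50 gene lists were chosen with earlier results of these data known. Genes are named by a rule: all clock list genes, the 15 largest differences each way among called genes of at least 5 RPKM with 1 direction at 6 times, the 10 smallest p-values, up to 4 members a list, and called genes near Arntl. A few genes that the rule names are not reported here. The Dixon gap, alternatives and left-out libraries are in the closing section.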

Additional observations from a re-analysis of the deposited data

Results flagged for a closer look

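For 27 of the genes named in the text, the difference between BRE and WT itself varied between times by limma's moderated F test, 5 degrees of freedom, adjusted over all genes. Among clock genes, the adjusted p was, in turn, Nr1d1 (7.6e-13), Npas2 (3.6e-11), Cry1 (3.6e-11), Dbp (3.3e-16), Arntl (2.1e-10), Per2 (7.0e-06), Nr1d2 (1.1e-06), Per3 (3.1e-11), Ciart (6.6e-07), Tef (6.1e-13), Leo1 (2.4e-05), Cry2 (1.4e-06) and Hlf (0.00074). Among other genes it was Abhd12b (0.029), Ttc9 (1.1e-07), Serpinb12 (0.00027), Ccnd2 (6.3e-06), Mcm6 (9.2e-06), Ngfr (0.035), Agpat3 (9.5e-06), Acadl (8.8e-05), Hadhb (0.043), Slc2a1 (0.0013), Sod2 (6.3e-06), Ccnd1 (0.00014), Rdh12 (0.00038) and Thy1 (0.027). The WT time means spanned more than those of BRE in all of these except Mcm6.

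Where the levels of 4 mice at a time were given or plotted, 7 of 132 groups held a mouse set apart from the other 3 by more than the Dixon critical value, and chance gives about 1 in 20 groups. These were Nr1d1 at 1.84 log2 RPKM in BRE CT12 replicate 4, Npas2 at 1.41 in WT CT12 replicate 3, Abhd12b at 4.89 in BRE CT8 replicate 3, Ccnd2 at 6.33 in BRE CT4 replicate 3, Per2 at 2.82 in BRE CT0 replicate 1, and Mcm6 at 4.89 in WT CT8 replicate 4 and at 4.36 in BRE CT8 replicate 4.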

How the results depend on the processing

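The count of 4066 genes stayed within 1.5 times of itself under every alternative run. It was 4537 with no filter on low values, 3252 with a stricter one, 3703 with median-of-ratios centring, 4091 on log2(RPKM + 1), 4214 by limma-voom, 4181 with genotype by CT means, 3992 with a cosine and sine, 4051 with the robust option, 4410 with library weights and 3958 with the spread of 96 libraries. It was 2961 to 3313 without a replicate number, 3749 to 4303 without 1 library and, an alternative chosen after seeing the data, 3239 to 4040 without 1 CT. With the replicate number as a block it was 4069. The labels do not say that a replicate number pairs mice, so the replicate block is given here alone. Of 24 same-numbered pairs 11 deviated together with a correlation over 0.1. The median correlation was 0.088 for the same number and -0.031 for different numbers, and what lies behind this gap was not tested. The replicate block gave 285 genes for the difference between times and 2994 for BRE versus RERE.

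Counts within a time moved by more when replicate numbers or, added after seeing the data, single libraries were left out. The lowest and highest counts were 28 and 841 at CT0, 173 and 1212 at CT4, 465 and 1263 at CT8, 583 and 1295 at CT12, 163 and 604 at CT16, and 0 and 213 at CT20. The difference between times gave 97 to 135 genes and BRE versus RERE 1878 to 2520 without a replicate number. Of 180 called named genes, 148 were tested in all 69 alternatives, of which 112 kept the call in each. The other 32 fell under the stricter filter. None of the 180 reversed where tested. Calls were lost most often without a replicate number (22 to 29 genes), and leaving out 1 library ended at most 5. Counts of several lists moved by over 1.5 times, as given beside them. The median of 1 list, clock repressors, moved by more than its SD over libraries, from -0.82 to -0.65 without replicate 3. At about 15 M reads, genes under 1 RPKM were not tested.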
